A study of Homo sapiens with 12 samples.

Results

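The integrin and laminin chains were taken as the genes whose name begins with ITGA or ITGB, or is LAMA, LAMB or LAMC followed by a single digit. Integrin-binding proteins, pseudogenes and antisense transcripts were left out. The 37 genes described here, of the 58302 in the expression table, were 18 integrin alpha chains, 8 integrin beta chains and 11 laminin chains. The 12 RNA-seq libraries comprise TPC1 and the clones D11, WB1 and TD5, with 3 libraries per line. TPC1 is an established line of papillary thyroid carcinoma cells and carries the genotype wt. The 3 clones carry the genotype Dicer1 (+/-) and were derived from TPC1 with a CRISPR/Cas9 plasmid whose guide lies in exon 11 of DICER1, so they share the TPC1 background. All 4 lines are labelled as thyroid. Each clone is 1 monoclonal line, so the edited allele and the history of the clone cannot be told apart. The labels do not say whether the 3 libraries of a line came from separate cultures. The p-values below therefore measure the spread between these libraries, which may be technical.

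Integrins are transmembrane receptors made of an alpha and a beta chain, and the pair decides which matrix protein is bound. Laminins are trimers of an alpha, a beta and a gamma chain that build the basement membrane on which epithelial cells rest. In the thyroid, follicular cells lie on such a membrane, and carcinoma cells that leave the follicle meet collagens and fibronectin instead. DICER1 encodes the enzyme that cuts miRNA precursors into mature miRNAs, which lower the level of mRNAs that pair with the miRNA seed. The comparison of TPC1 with each clone asks how the loss of 1 functional Dicer1 allele changes the transcriptome.

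The seed matches of 4 miRNA families are shown first, because DICER1 makes miRNAs and because the families are widely studied in adhesion and matrix genes. miRNAs themselves were not measured in these libraries. One mature sequence per family follows, from the RefSeq set for GRCh38.p14, with the seed at bases 2 to 8 in capitals.
hsa-let-7a-5p: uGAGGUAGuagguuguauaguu
hsa-miR-29a-3p: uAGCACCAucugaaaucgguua
hsa-miR-31-5p: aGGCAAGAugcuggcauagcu
hsa-miR-92a-3p: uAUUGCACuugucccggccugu

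The 7-base reverse complement of each seed was searched on the sense strand of the 3′ UTR of the canonical GENCODE transcript, which 12463 of the tested genes and all 21 chains that passed the filter on low values have. The let-7 match CTACCTC was found in 11.2% of these genes and in 4 of the 21 chains. For miR-29 the match is TGGTGCT, which 16.6% of the genes and 4 chains held. The miR-31 match TCTTGCC was present in 14.5% of the genes and in 3 chains. For the family of miR-25 and miR-92 the match is GTGCAAT, held by 12.8% of the genes and by 6 chains. Sites of the 4 chains that were called between any pair of lines are given with the match in capitals. The positions are on GRCh38, and the letters are those of the mRNA strand.
ITGA2, miR-29 match, chr5:53092675-53092696, plus strand: tatttaacagctagTGGTGCTg
ITGA6, miR-25/92 match, chr2:172504726-172504747, plus strand: gtcttaaactaaatGTGCAATa
ITGA11, let-7 match, chr15:68299763-68299784, minus strand: cacaagataaattcCTACCTCc
ITGA11, miR-31 match, chr15:68298334-68298354, minus strand: acatgcaagagtaTCTTGCCa
ITGB8, miR-31 match, chr7:20411075-20411095, plus strand: tcactccaaccctTCTTGCCa
ITGB8, miR-25/92 match, chr7:20411192-20411213, plus strand: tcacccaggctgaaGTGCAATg
ITGB8, let-7 match, chr7:20411589-20411610, plus strand: tgcacaatatcatgCTACCTCt

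ITGB8 held matches for 3 families and ITGA11 for 2, whereas ITGA2 and ITGA6 each held matches for 1 family. The 3′ UTRs searched were 6527 bases long in ITGA11, 5757 in ITGB8, 4180 in ITGA2 and 2391 in ITGA6. A longer 3′ UTR holds more 7-base matches by chance, and the shares over all genes were not matched for length. The counts of matches are therefore not read as a property of the chains. A match describes the letters of the transcript, and its use by a miRNA was not measured.

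The deposited values are reads scaled by the authors to 20000000 aligned reads per library and rounded up to whole numbers, called scaled reads here. The steps between the values correspond to an estimated 12700000 to 21025000 reads per library, with TPC1 at 13745000 to 21025000, D11 at 14580000 to 16795000, WB1 at 16460000 to 17330000 and TD5 at 12700000 to 15900000. A floor of 3 reads, which covers counting error only, lies at 2.85 to 4.72 scaled reads. DICER1 ranged over 1101 to 1360 scaled reads in TPC1, 977 to 1093 in D11, 815 to 939 in WB1 and 627 to 809 in TD5. By limma it was lower than in TPC1 in the TD5 clone (log2 fold change -0.77, adjusted p = 9.02e-05) and, under 1.5-fold, in the WB1 clone (-0.43, adjusted p = 0.00404), while D11 did not pass (-0.19, adjusted p = 0.138). Of 6 markers of thyroid follicular cells, PAX8 stood at 7248 to 9879 scaled reads, while TSHR, SLC5A5 and NKX2-1 were at 0 in all 12 libraries. FOXE1, a thyroid transcription factor, ranged over 280 to 316 in TPC1, 123 to 171 in D11, 112 to 151 in WB1 and 93 to 131 in TD5, and TG, which encodes thyroglobulin, over 11 to 27 in all lines. Of 6 epithelial markers, KRT8 stood at 10280 to 16274, whereas EPCAM, CDH1 and KRT19 did not exceed 6. KRT7 stood at 209 to 308 and KRT18 at 5237 to 7775, so the markers of thyroid and epithelium above the floor in every library were PAX8, FOXE1, TG, KRT7, KRT8 and KRT18. Mitochondrially encoded genes took 1.33 to 1.45% of the values in TPC1, 2.07 to 2.17% in D11, 1.9 to 2.22% in WB1 and 1.67 to 1.95% in TD5, and the part of this difference in the results below was not tested.

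Of the 37 chains, 21 reached at least 1 scaled read per 1000000 in at least 3 libraries and were tested. The other 16 chains, 12 of integrins and 4 of laminins, did not exceed 24 scaled reads in any library. Of these 16, 9 held a 0 in at least 1 library. The 16 chains included ITGA4, ITGAL, ITGAM, ITGAD, ITGA9 and ITGB7, chains used mainly by leukocytes or the alpha4 and alpha9 receptors, and ITGA2B, the platelet chain. Also under the filter were ITGA7, ITGA8, ITGA10, ITGB4, ITGB6, LAMA1, LAMA4, LAMB4 and LAMC3. ITGB4, the partner of the alpha6 chain in hemidesmosomes, stood at 0 to 9 scaled reads. Other leukocyte chains passed the filter, with ITGAE at 403 to 498 scaled reads, ITGB2 at 41 to 95 and ITGAX at 17 to 36. Leukocyte markers were near the floor, with PTPRC at 0 to 3, and the platelet markers GP9 and PF4 were at 0 in every library.

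Set against transcript length, the chains covered a wide range of levels in all 4 lines. The common beta chain ITGB1 was highest, with a mean over the 12 libraries of 318 scaled reads per 1000000 per kb of transcript (range 278 to 350). Its laminin-binding partner ITGA3 followed at 268 (230 to 314), and the ranges of these 2 chains overlapped. The laminin chains LAMC1, at 138 (126 to 149), and LAMB3, at 124 (110 to 149), came next and could not be separated by their ranges. The fibronectin receptor chain ITGA5 lay at 75.2 (57.9 to 86.9), followed by ITGB5 at 58.6 and ITGB3 at 42.4, both of which pair with ITGAV at 28.8. LAMB1 lay at 38. The laminin-binding chain ITGA6 lay at 13.7 and LAMB2 at 12.9, close to the collagen-binding chain ITGA2 at 10.1. The laminin alpha chains were lower per length than the laminin beta and gamma chains above, with LAMA5 at 6.05, LAMA3 at 2.49 and LAMA2 at 0.539. At the low end with LAMA2 were ITGB8 at 0.553, ITGA11 at 0.457 and ITGAX, the lowest tested chain, at 0.303. These levels use the canonical transcript of each gene, which need not be the one these cells use. Reads of ITGB3 are uncertain, because its exons share 2266 bases on the same strand with the gene ENSG00000259753, itself at 2160 to 3891 scaled reads. ITGA1 shares 499 bases with PELO in the same way. LAMA5 shares 244 exon bases with ADRM1, LAMB1 300 with DLD and ITGAE 427 with HASPIN on the opposite strand, and the sources used here do not say whether the counting used strand.

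**Figure D1:**
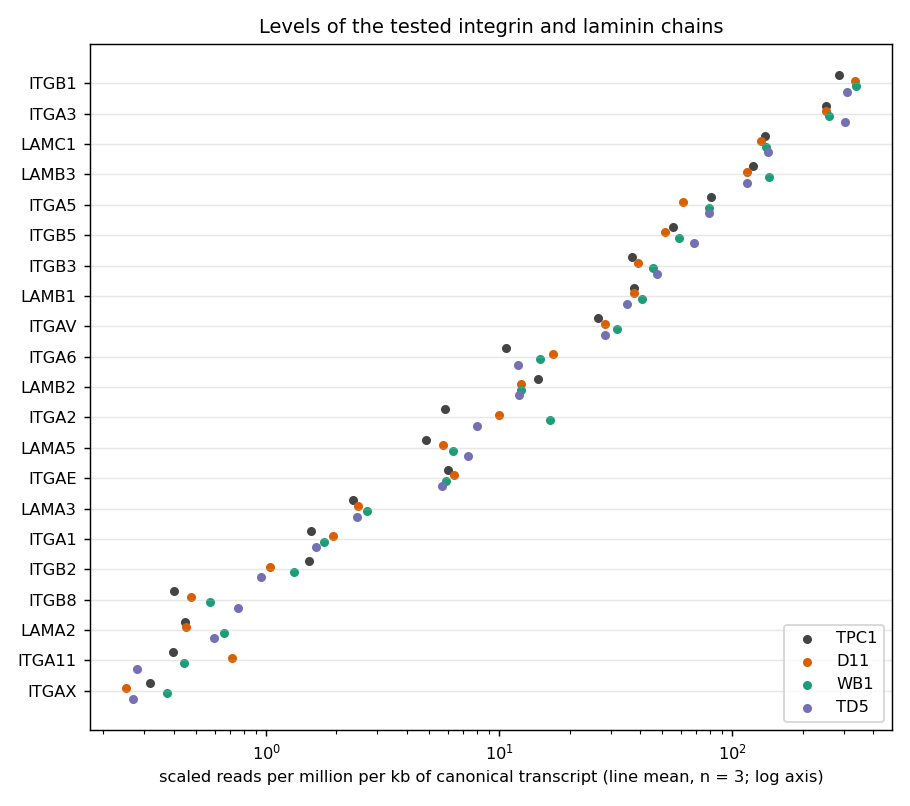
Mean level of each of the 21 tested chains in TPC1, D11, WB1 and TD5 (n = 3 libraries per point), in scaled reads per 1000000 per kb of canonical transcript on a log axis. ITGB1 and ITGA3 lie at the top and ITGA11 and ITGAX at the bottom in the order by mean, and the points of the 4 lines lie farthest apart for ITGA2 and ITGA11.

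Tests were made on log2(value per 1000000 + 1) with limma over all 16027 tested genes, so fold changes of low genes are understated. A gene was called when the Benjamini-Hochberg adjusted p was under 0.05 and the change reached 1.5-fold. Among the 21 tested chains, 15 (71.4%) differed among the 4 lines by limma's moderated F test, beside 44.6% of all tested genes. The share over all genes was not matched to the chains for level. In the adhesion, matrix and hemidesmosome lists described below, 66.7%, 82.4% and 83.3% of the tested genes passed this F test. The chains that did not reach the threshold were ITGA1, ITGAE, ITGAV, ITGAX, LAMA3 and LAMC1. In D11 against TPC1, 3 chains were called higher (ITGA2, ITGA6 and ITGA11) and 0 lower, where 2.89% of all genes were called higher and 1.95% lower. With no minimum fold, 8 chains passed limma's threshold in this comparison, 5 of them higher and 3 lower, where 19.9% of all genes passed higher and 13.4% lower. In WB1 against TPC1, 1 chain was called higher (ITGA2) and 0 lower, with 3.39% of all genes called higher and 1.59% lower. Here 8 chains passed with no minimum fold, 7 of them higher, where 18.6% of all genes passed higher and 12.3% lower. In TD5 against TPC1, 1 chain was called higher (ITGB8) and 0 lower, with 1.12% of all genes called higher and 1.48% lower. With no minimum fold 6 chains passed, 4 of them higher, where 5.32% of all genes passed higher and 6.57% lower. The median log2 fold change of the tested chains was 0.07 in D11, 0.17 in WB1 and 0.07 in TD5, beside medians of 0.05, 0.06 and 0.00 over all genes. The 3 comparisons share the TPC1 libraries. Under median-of-ratios scaling the share of higher calls among all calls moved from 59.7% to 48.4% in D11 and from 68.1% to 56% in WB1, but the log2 fold changes of the called chains kept their sign.

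**Figure D2:**
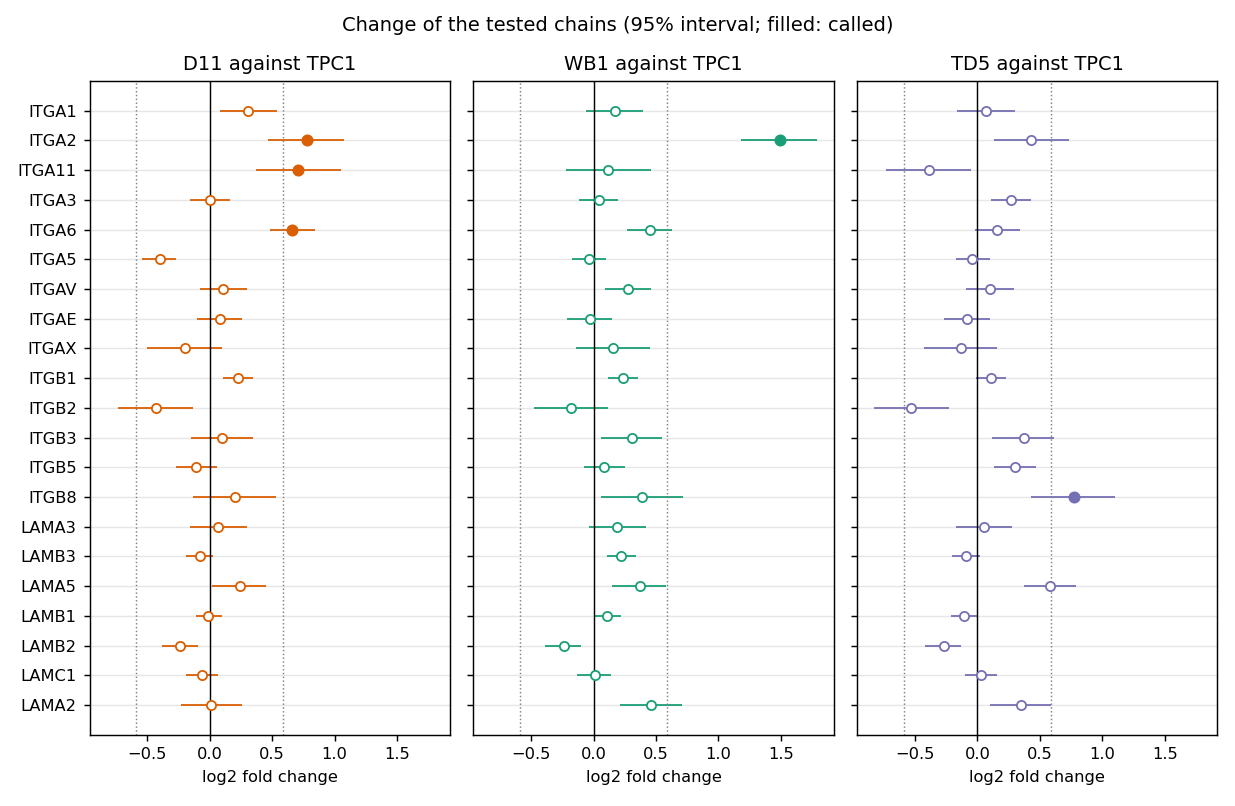
Log2 fold change against TPC1 of the 21 tested chains in D11, WB1 and TD5, with the 95% interval of the fit (3 libraries per line); filled points are called and dotted lines mark 1.5-fold. Filled points are ITGA2, ITGA11 and ITGA6 in D11, ITGA2 in WB1 and ITGB8 in TD5, and most intervals lie inside the dotted lines.

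Of the 3 tested collagen-binding alpha chains, ITGA2 and ITGA11 differed among the lines by the F test and ITGA1 did not. These chains pair with ITGB1 and carry an inserted domain that grips triple-helical collagen. ITGA2 (ENSG00000164171, chr5:52989340-53094779), the alpha2 chain of the receptor for collagen, gave 864, 1097 and 789 scaled reads for TPC1. The D11 libraries gave 1637, 1537 and 1541, those of WB1 2729, 2349 and 2684, and those of TD5 1399, 894 and 1487. All libraries of D11 and WB1 lay above those of TPC1, and WB1 lay above D11, whereas 1 TD5 library fell within the TPC1 range. The mean rose from 917 ± 161 (SD, n = 3) in TPC1 to 1572 ± 56.6 in D11, a log2 fold change of 0.78 (SE 0.14, limma, adjusted p = 0.00101). It reached 2587 ± 208 in WB1, a log2 fold change of 1.49 against TPC1 (SE 0.14, limma, adjusted p = 3.42e-06). In TD5 the mean was 1260 ± 320, with a log2 fold change of 0.43 (limma, adjusted p = 0.0611), which did not pass. After correction of each library for GC content the D11 value was 0.57, below 1.5-fold, whereas the WB1 value ranged from 1.30 to 1.62 over all 24 alternatives and stayed called.

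ITGA11 (ENSG00000137809, chr15:68296532-68432163), a collagen receptor chain best known from fibroblasts, lay far below ITGA2 per length. Its libraries held 82, 93 and 67 scaled reads in TPC1, 149, 124 and 162 in D11, 65, 90 and 117 in WB1, with 65, 58 and 47 in TD5. D11 lay above all other lines without overlap, and TD5 lay below TPC1 without overlap. Against TPC1 the log2 fold change was 0.71 for D11 (SE 0.16, limma, adjusted p = 0.00389). It was 0.12 for WB1 (adjusted p = 0.604 by limma) and -0.39 for TD5 (adjusted p = 0.127). With correction of each library for transcript length the D11 value was 0.58, and with a pseudocount of 4 it was 0.49, both below 1.5-fold. Of the fibroblast markers DCN was at 0 in every library, and PDGFRB ranged over 112 to 192 scaled reads in TPC1, 95 to 135 in D11, 37 to 56 in WB1 and 139 to 158 in TD5. LUM stood at 63 to 78 in TPC1 and 138 to 212 in WB1, but at 0 in D11 and 0 to 2 in TD5. The sum of these 3 markers was 185 to 270 in TPC1, 95 to 135 in D11, 175 to 268 in WB1 and 139 to 158 in TD5, and so was lowest in D11, where ITGA11 was highest. TPC1 is a carcinoma line and the clones are monoclonal, so these values describe marker RNA and not a share of fibroblasts. In bulk RNA, fewer cells that make an RNA and less RNA per cell cannot be told apart. The third collagen-binding chain, ITGA1, stood at 289 to 443 scaled reads over all libraries. It passed with no minimum fold in D11 only (0.31, limma, adjusted p = 0.0403), and the difference of this change between the clones did not pass in any pair (lowest adjusted p 0.13 by limma). The D11 value missed the p threshold in 13 of 24 alternatives, among them GC correction (0.07), length correction (0.16), median-of-ratios (0.25) and upper-quartile scaling (0.22), and the fits without TPC1 replicate 2 (0.30) or 3 (0.21) and without D11 replicate 1 (0.34), 2 (0.31) or 3 (0.26).

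The laminin-binding alpha chains gave 1 call. ITGA6 (ENSG00000091409, chr2:172427354-172506459), the alpha6 chain, pairs with ITGB1 in most cells and with ITGB4 in hemidesmosomes. Its TPC1 libraries held 1220, 1320 and 1208 scaled reads, the D11 libraries 1966, 1961 and 2013, the WB1 libraries 2048, 1522 and 1621, and the TD5 libraries 1416, 1335 and 1456. Every library of the 3 clones lay above every TPC1 library. The log2 fold change was 0.66 in D11 (SE 0.09, limma, adjusted p = 5.43e-05) and 0.45 in WB1 (adjusted p = 0.00118), which was under 1.5-fold. In TD5 it was 0.16 (limma, adjusted p = 0.23). The D11 change was 0.50 with GC correction, 0.56 with length correction and 0.57 with upper-quartile scaling, each under 1.5-fold with an adjusted p under 0.05. ITGA3, which pairs with ITGB1 to bind laminins, was the most abundant alpha chain. Its libraries held 22549, 27250 and 24483 scaled reads in TPC1, 25455, 23498 and 25065 in D11, 22812, 25418 and 28385 in WB1, with 30730, 29195 and 29263 in TD5. The TD5 libraries lay above all others, with a log2 fold change of 0.27 against TPC1 (limma, adjusted p = 0.0279), below the fold threshold. It missed the p threshold in 8 of 24 alternatives, among them the fits without TPC1 replicate 1 (0.20) or 3 (0.26) and without TD5 replicate 1 (0.24).

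Among the chains that bind the RGD motif of fibronectin and vitronectin, ITGA5 was lower in D11 than in the other 3 lines. Its libraries held 6553, 7223 and 6931 scaled reads in TPC1, 5309, 4925 and 5440 in D11, 6444, 6370 and 7394 in WB1, with 6986, 6661 and 6503 in TD5. The D11 libraries lay below all others. D11 was lower than TPC1 (log2 fold change -0.40, limma, adjusted p = 0.000362) and lower than both other clones, which each exceeded it by 0.36 (limma, adjusted p = 0.00128 for WB1 and 0.000925 for TD5). All 3 differences were under 1.5-fold. ITGAV, the vitronectin receptor chain, held 4267, 3418 and 3494 scaled reads in TPC1, 3821, 3967 and 4204 in D11, 4266, 4908 and 4327 in WB1, with 3952, 3539 and 4467 in TD5. The lines overlapped except for WB1 and D11, and ITGAV reached the threshold without a minimum fold in WB1 against TPC1 (0.28, limma, adjusted p = 0.0284). That threshold was missed in 10 of 24 alternatives, among them GC correction (0.06), length correction (0.16), median-of-ratios (0.21) and upper-quartile scaling (0.19), and the fits without TPC1 replicate 2 (0.22) or 3 (0.23) and without WB1 replicate 2 (0.21).

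All 5 tested beta chains differed among the lines by the F test, by small amounts in most cases. ITGB1, the partner of most alpha chains above, held 21190, 22507 and 20765 scaled reads in TPC1, 25071, 24263 and 26075 in D11, 24435, 26167 and 25362 in WB1, with 23715, 21449 and 24300 in TD5. D11 and WB1 lay above TPC1 without overlap, with log2 fold changes of 0.23 and 0.24 (limma, adjusted p = 0.00714 and 0.00551), under the fold threshold. With GC correction the values of ITGB1 were 0.01 and 0.04 and with upper-quartile scaling 0.14 and 0.15, and none of these passed. ITGB3 held 4548, 5123 and 3549 in TPC1, 4765, 4489 and 4774 in D11, 4602, 5601 and 6096 in WB1, with 6439, 5039 and 5487 in TD5. Its libraries overlapped between TPC1 and every clone, and none of the 3 changes reached the threshold. The ITGB3 log2 fold changes were 0.10 in D11, 0.31 in WB1 and 0.37 in TD5 (limma, adjusted p = 0.525, 0.0557 and 0.0506). ITGB5, which pairs with ITGAV, held 4821, 5479 and 4527 in TPC1, 4606, 4533 and 4598 in D11, 4783, 5113 and 5841 in WB1, with 6626, 5966 and 5638 in TD5. TD5 lay above TPC1 and D11 without overlap, and the log2 fold change against TPC1 was 0.30 (limma, adjusted p = 0.0214). This ITGB5 value did not pass without TPC1 replicate 1 (0.28) or 3 (0.24) or without TD5 replicate 1 (0.23). ITGB2, the beta chain of leukocyte integrins, stood at 72 to 95 scaled reads in TPC1, 53 to 64 in D11, 62 to 88 in WB1 and 41 to 62 in TD5, so that D11 and TD5 lay below TPC1 without overlap. The ITGB2 log2 fold changes were -0.43 and -0.53 (limma, adjusted p = 0.0296 and 0.0217), under 1.5-fold on this scale. They missed the p threshold in 6 and 4 of 23 alternatives, both without TPC1 replicate 1 or 3. The ITGB2 mean of TD5 was 62.3% of the TPC1 mean, and with a pseudocount of 0.1 ITGB2 was called lower in TD5. ITGB2 shares 303 exon bases with ITGB2-AS1 on the opposite strand, itself at 5 to 38 scaled reads.

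**Figure D3:**
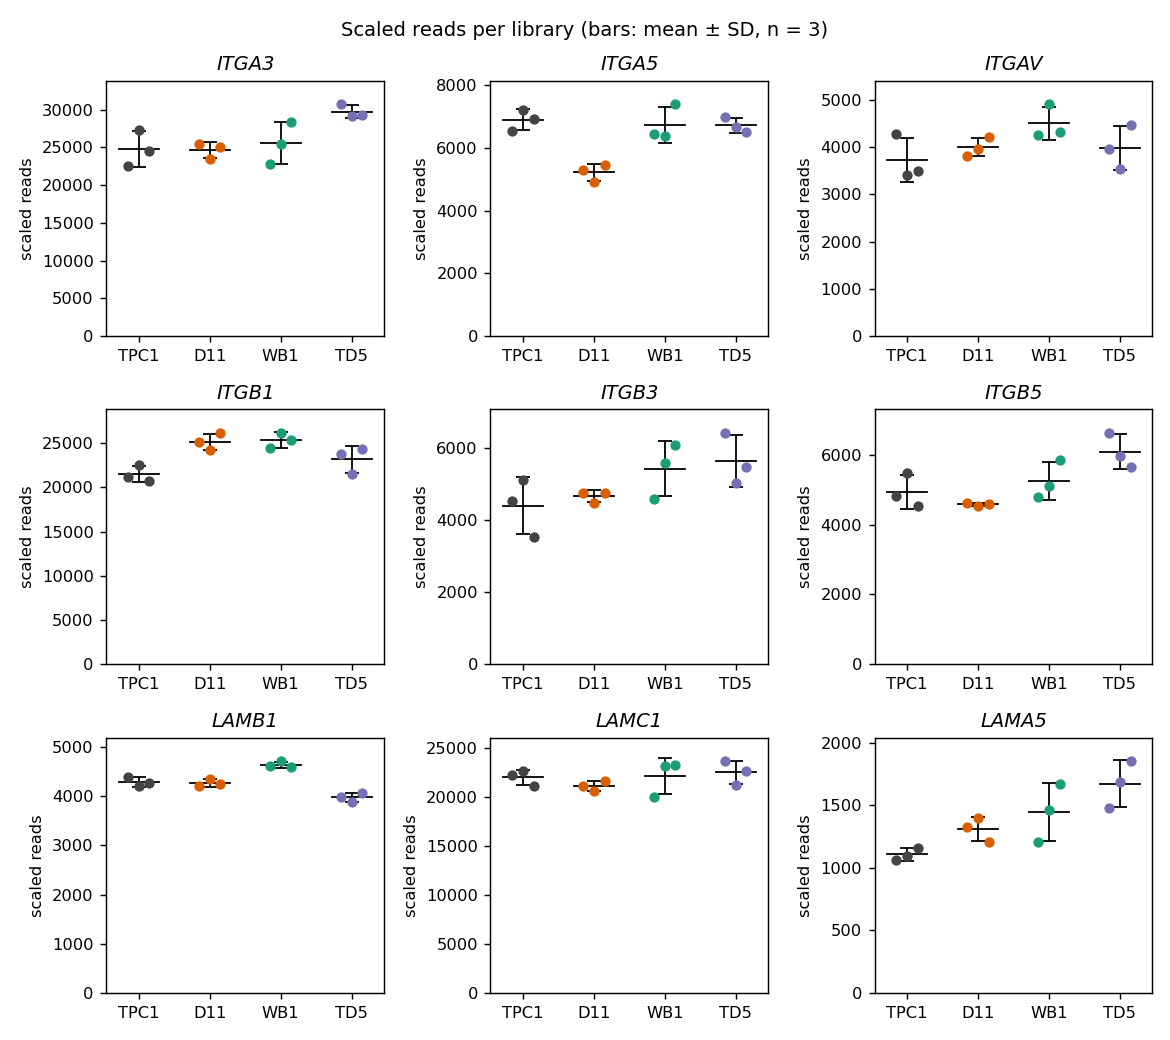
Scaled reads in each of the 12 libraries for 9 chains by line, with the mean and SD (n = 3) as bars and axes starting at 0. Shown are the 3 highest alpha and 3 highest beta chains per kb, LAMB1, LAMC1, and LAMA5, which was added after its values were seen. ITGA5 is lowest in D11 (4925 to 5440), ITGA3 is highest in TD5 (29195 to 30730), and LAMC1 overlaps between all lines.

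ITGB8 (ENSG00000105855, chr7:20330702-20415754) pairs with ITGAV and is known for releasing active TGF-beta from its latent complex. Its libraries held 81, 79 and 57 scaled reads in TPC1, 84, 79 and 94 in D11, 73, 133 and 102 in WB1, with 138, 123 and 148 in TD5. TD5 lay above TPC1 and D11 without overlap, while WB1 spanned the range between them. The log2 fold change against TPC1 was 0.77 in TD5 (SE 0.16, limma, adjusted p = 0.00425), 0.39 in WB1 (adjusted p = 0.0686) and 0.20 in D11 (adjusted p = 0.33). With a pseudocount of 4 the TD5 value was 0.51 and under 1.5-fold.

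LAMB3 and LAMA3 are chains of laminin-332, the laminin of epithelial adhesion to the basement membrane. LAMB3, the beta chain, held 9323, 10218 and 9931 in TPC1, 9553, 9476 and 8875 in D11, 11306, 11157 and 11983 in WB1, with 9132, 9372 and 9167 in TD5. WB1 lay above all other lines, with a log2 fold change of 0.22 against TPC1 (limma, adjusted p = 0.00486). With upper-quartile scaling it was 0.14 and with length correction 0.16, and neither passed. LAMA3, the alpha chain, ranged over 418 to 554 in TPC1, 470 to 557 in D11, 520 to 618 in WB1 and 468 to 549 in TD5. These ranges overlapped, with a log2 fold change of 0.19 in WB1 (95% interval -0.04 to 0.42).

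LAMA5, LAMB1, LAMB2 and LAMC1 are the chains of the common laminins of adult basement membranes. LAMC1 was the most abundant, at 22182, 22605 and 21126 scaled reads in TPC1, 21053, 20581 and 21596 in D11, 19944, 23136 and 23211 in WB1, with 23625, 21210 and 22574 in TD5. The 4 lines overlapped, and the log2 fold changes against TPC1 lay between -0.06 and 0.03. LAMB1 held 4399, 4199 and 4262 in TPC1, 4205, 4357 and 4252 in D11, 4612, 4712 and 4587 in WB1, with 3977, 3881 and 4072 in TD5. WB1 lay above and TD5 below the other lines. The 2 clones differed by -0.22 for TD5 against WB1 (limma, adjusted p = 0.0081), while neither change against TPC1 passed. With length correction this difference in LAMB1 was -0.13 and did not pass. LAMA5, the alpha chain, held 1065, 1096 and 1162 scaled reads in TPC1, 1323, 1397 and 1207 in D11, 1204, 1465 and 1668 in WB1, with 1481, 1683 and 1853 in TD5. All clone libraries lay above those of TPC1, and the log2 fold change was 0.58 in TD5 (limma, adjusted p = 0.0013), 0.37 in WB1 (adjusted p = 0.0126) and, short of the p threshold, 0.24 in D11 (adjusted p = 0.0825). The TD5 value fell just short of 1.5-fold on this scale and kept an adjusted p under 0.05 by limma in all 24 alternatives. The WB1 value of LAMA5 did not pass with length correction (0.20) or without WB1 replicate 3 (0.26). LAMB2, the alternative beta chain, had log2 fold changes of -0.24, -0.24 and -0.27 in D11, WB1 and TD5 (limma, adjusted p = 0.0143, 0.0139 and 0.015), each under 1.5-fold. Its libraries held 1630 to 1747 scaled reads in TPC1, 1365 to 1455 in D11, 1368 to 1478 in WB1 and 1300 to 1530 in TD5, with no overlap between TPC1 and a clone. Without TPC1 replicate 3, which has the highest LAMB2 value, the changes were -0.21, -0.21 and -0.25 and did not pass. The same held for D11 without its replicate 3 (-0.21), for WB1 without its replicate 1 (-0.22) and for TD5 without its replicate 1 (-0.25) or 3 (-0.23). With GC correction the LAMB2 values were -0.13 in D11 and -0.15 in WB1 and did not pass, while TD5 passed at -0.24. LAMA2, the alpha chain of muscle and nerve laminins, stood at 83 to 92 scaled reads in TPC1, 83 to 92 in D11, 103 to 143 in WB1 and 110 to 123 in TD5. Its log2 fold change in WB1 was 0.46 (limma, adjusted p = 0.00776), under the fold threshold, and with length correction it was 0.31 and did not pass.

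The clones were then compared with each other, which tests directly whether their levels differ. In WB1 against D11, ITGA2 was called higher and ITGA11 lower, where 1.97% of all genes were called higher and 0.88% lower. In TD5 against D11, ITGA11 was called lower and 0 chains higher, where 1.67% of all genes were called higher and 2.32% lower. In TD5 against WB1, ITGA2 was called lower and 0 chains higher, where 0.611% of all genes were called higher and 1.72% lower. With no minimum fold, 4 chains passed higher and 1 lower in WB1 against D11, where 4.65% of all genes passed higher and 3.42% lower. In TD5 against D11 these counts were 6 and 2, beside 8.43% and 14.8% of all genes, and in TD5 against WB1 0 and 5, beside 4.52% and 9.12%. Median-of-ratios scaling moved the share of higher calls among all calls from 41.9% to 52.4% in TD5 against D11 and from 26.3% to 37.4% in TD5 against WB1. ITGA2 was 1.65 times as high in WB1 as in D11 (log2 difference 0.71, limma, adjusted p = 0.00403), and LAMB3, under 1.5-fold, was 1.23 times as high (0.30, adjusted p = 0.00114). TD5 held 48.7% of the WB1 mean of ITGA2 (-1.06, limma, adjusted p = 0.000176), a call that held in all 24 alternatives. ITGA11 in TD5 was at 39.1% of its D11 mean (-1.11, limma, adjusted p = 0.000174), and this call held in all 25 alternatives. The lower ITGA11 of WB1 against D11 (-0.60, limma, adjusted p = 0.0285) lost its call in 7 of 24 alternatives. Among these were the fits without D11 replicate 1 (-0.58) or 3 (-0.52), and without WB1 replicate 1 (-0.42) or 2 (-0.61).

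The partners of these chains inside and outside the cell were read from 3 lists. The lists were chosen with earlier results of these data known, so their counts beside all genes are descriptive. Of 31 genes of the adhesion complex inside the cell, which links integrins to actin and to kinases, 27 were tested. D11 had 0 of them called higher and 2 lower, where 2.89% of all genes were called higher and 1.95% lower. WB1 had 0 in either direction, where 3.39% of all genes were called higher and 1.59% lower. TD5 had 1 higher and 1 lower, where 1.12% and 1.48% of all genes were. PTK2B, the PYK2 kinase, went from 267 to 284 scaled reads in TPC1 to 157 to 178 in D11, 185 to 196 in WB1 and 123 to 156 in TD5, with log2 fold changes of -0.67, -0.48 and -0.92 (limma, adjusted p = 0.000197, 0.00224 and 1.65e-05). TNS1, which encodes the linker tensin-1, fell by 0.67 in D11 (limma, adjusted p = 0.00288), although without TPC1 replicate 3 the value was -0.50. KANK2, a talin-binding protein, was higher in TD5 by 0.83 (limma, adjusted p = 2.24e-05). KANK2 was also higher, under 1.5-fold, in D11 (0.44, limma, adjusted p = 0.00265) and WB1 (0.42, adjusted p = 0.00325). With no minimum fold, 17 of the 27 passed in D11, 13 of them lower, and 16 in WB1, 13 of them lower. Of all genes, 13.4% passed lower in D11 and 12.3% in WB1. In TD5 7 passed, 5 of them lower, where 6.57% of all genes passed lower. The list's median log2 fold changes were -0.15, -0.16 and -0.08, beside 0.05, 0.06 and 0.00 over all genes.

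Of 21 matrix ligands and basement membrane partners, 17 were tested. D11 had 0 of them called higher and 4 lower, where 2.89% of all genes were called higher and 1.95% lower. WB1 had 1 higher and 2 lower (3.39% and 1.59% of all genes), and TD5 had 1 higher and 0 lower (1.12% and 1.48%). COL4A4, a type IV collagen chain, held 136 to 189 scaled reads in TPC1, 13 to 32 in D11, 73 to 88 in WB1 and 106 to 145 in TD5. It was lower in D11 by a log2 fold change of -2.14 (limma, adjusted p = 7.19e-08) and in WB1 by -0.86 (adjusted p = 0.00104). COL4A1, an abundant type IV collagen chain, was lower in D11 (-0.71, limma, adjusted p = 8.32e-07), as was NID2, a nidogen that links laminin to type IV collagen (-0.84, adjusted p = 9.75e-06). COL4A1 was also lower, under 1.5-fold, in WB1 (-0.23, limma, adjusted p = 0.0116) and TD5 (-0.21, adjusted p = 0.04). EDIL3, an RGD protein bound by ITGAV receptors, was at 44.7% of the TPC1 mean in D11 (-1.06, limma, adjusted p = 0.000229). THBS1, thrombospondin-1, was at 55.9% in WB1 (-0.86, limma, adjusted p = 0.000215). THBS1 was also lower, under 1.5-fold, in D11 (-0.44, limma, adjusted p = 0.0175) and TD5 (-0.57, adjusted p = 0.00917). TNC, which encodes tenascin-C, held 1054 to 1819 scaled reads in TPC1, 2963 to 3320 in WB1 and 2209 to 2631 in TD5. TNC was thus higher in WB1 (1.28, limma, adjusted p = 9.96e-06) and TD5 (0.87, adjusted p = 0.000592). Between clones, 5 of the 17 matrix genes were called higher in WB1 than in D11 and 4 higher in TD5 than in D11, with 0 lower in both. Of all genes, 1.97% were called higher in WB1 than in D11 and 1.67% in TD5 than in D11.

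Of 12 hemidesmosome partners, tetraspanins and other laminin receptors, all 12 were tested. CD82, a tetraspanin that associates with integrins, was called lower in D11 (-0.65, limma, adjusted p = 1.41e-05), with -0.37 in WB1 and -0.40 in TD5. That D11 call was lost without TPC1 replicate 3 (-0.56). BCAM, the Lutheran glycoprotein and a receptor for the LAMA5 chain, was called higher in TD5 (0.60, limma, adjusted p = 7.06e-05), with 0.04 in D11 and -0.08 in WB1. BCAM was also called higher in TD5 than in WB1 (0.69, limma, adjusted p = 1.87e-05). Without TPC1 replicate 1 (0.55) or TD5 replicate 3 (0.57) the TD5 change against TPC1 fell under 1.5-fold.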

How the data were processed

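Per the labels and the methods, stranded mRNA libraries were sequenced in pairs, mapped to GRCh38 with STAR 2.5.3a and counted on Ensembl genes with HTSeq 0.9.1. The strand setting of the counting is not given in the sources used here. The deposited values, treated as a score, are reads the authors normalized to 20000000 aligned reads, as whole numbers. Because they are scaled, a count test was not used. Values per 1000000 of the library sum were tested with limma 3.58.1 (R 4.3.3) as log2(value + 1), with a mean-variance trend, 1 mean per line over 12 libraries, and a filter of 1 per 1000000 in at least 3 libraries (16027 genes). The estimated depth of 12700000 to 21025000 reads limits the low chains. Replicate libraries differed by more than counting noise (chi-square per gene 2.87 to 10.1), and 0 were identical.

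Lines were taken from the sample titles. The treatment label of the clone libraries gives the transfected cells a different number after TPC in each library, while the cell line label names TPC1 throughout. The members and lists were chosen with earlier results of these data known. Values in every library were given for called chains and for the 3 highest alpha, beta and laminin chains per kb. Values of list genes were given for at most 6 called genes per list. LAMA5 was added after its values were seen. Some genes of the rule and of the lists, and sites found, are not reported here, and the counts of chains and markers leave them out. The main fit, and so every p-value given without a named alternative, used no pairing. Same-numbered deviations of the D11 and TD5 libraries correlated at 0.107, 0.172 and 0.348. A replicate block over only these libraries was therefore added to the alternatives. The sources used here name no such pairing. Matching the libraries of TD5 and TPC1 in another order gave a lowest correlation of 0.174, so such values alone do not show a pairing. Transcript lengths and 3′ UTRs came from GENCODE 44, and 99.1% of the tested genes had a length. Alternatives covered the pseudocount, filter, thresholds, scaling, corrections for length and GC, a replicate block, and leaving out each library. The calling was tested on simulated data for WB1 against TPC1 (15964 genes tested): 93 of 100 genes changed 2-fold and 99 of 99 changed 4-fold were recovered, with 1 false call. The simulation gave all genes and libraries the same dispersion and changed only genes above a minimum mean. The real libraries differed unevenly, and no 1.5-fold change was simulated. The recovery therefore does not cover calls near that fold. Python 3.11.15 was used with pandas 2.3.3, numpy 2.4.6 and matplotlib 3.10.9.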

Additional observations from a re-analysis of the deposited data

Results flagged for a closer look

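The 4 differences between clones are listed because the clones carry the same genotype label, Dicer1 (+/-), and limma's test of the difference itself passed. WB1 exceeded D11 in ITGA2 by a log2 difference of 0.71 (adjusted p = 0.00403). WB1 was lower than D11 in ITGA11 by -0.60 (adjusted p = 0.0285). TD5 was lower than D11 in ITGA11 by -1.11 (adjusted p = 0.000174). TD5 was lower than WB1 in ITGA2 by -1.06 (adjusted p = 0.000176). Each clone is 1 line, so a difference between clones and a difference between their alleles cannot be told apart.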

How the results depend on the processing

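Of 1666 alternative values of the called genes and of the smaller changes that passed on p alone, 1489 kept their side of the threshold, 177 did not, and 0 changed direction. In D11 against TPC1 the count of called chains went from 3 to 1 with length correction, with or without a replicate block, and with GC correction, to 8 with no minimum fold and to 0 at 2-fold. In WB1 against TPC1 it went from 1 to 8 with no minimum fold. In TD5 against TPC1 it went from 1 to 3 with a pseudocount of 0.1, to 0 with a pseudocount of 4 or at 2-fold, to 2 with length correction, with or without a replicate block, and to 6 with no minimum fold. In WB1 against D11 it went from 2 to 1 with a pseudocount of 4, with no filter on low values and with a replicate block, to 5 with no minimum fold and to 0 at 2-fold. In TD5 against D11 it went from 1 to 2, ITGB8 joining ITGA11, with a pseudocount of 0.1, median-of-ratios or upper-quartile scaling, GC correction, and length correction with or without a replicate block, and to 8 with no minimum fold. In TD5 against WB1 it went from 1 to 2 with a pseudocount of 0.1 and to 5 with no minimum fold. Calls over all genes moved as well. Higher and lower calls in D11 against TPC1 went from 463 and 312 to 311 and 365 with length correction. With GC correction they were 277 and 314. In TD5 against TPC1 they went from 179 and 238 to 256 and 317 with a pseudocount of 0.1. With a pseudocount of 4 they were 80 and 100. For WB1 against D11 they went from 315 and 141 to 142 and 71 with that pseudocount. The replicate block alone cost 1 call, ITGA11 in WB1 against D11 (-0.60, limma, adjusted p = 0.0535), and no other call at 1.5-fold of a chain was lost with it. The block over only the D11 and TD5 libraries was run as an alternative, and the main fit used no pairing. Leaving out 1 library at a time gave 3 to 3 called chains in D11 against TPC1, 1 to 2 in WB1, 1 to 3 in TD5, 1 to 2 in WB1 against D11, 1 to 2 in TD5 against D11 and 1 to 2 in TD5 against WB1, with 12 to 16 chains passing the F test. LAMA2 joined in WB1 against TPC1 without WB1 replicate 1. In TD5 against TPC1, ITGA2 and ITGB2 joined without TD5 replicate 2, ITGB2 without TPC1 replicate 2, and LAMA5 without TPC1 replicate 3 or TD5 replicate 1. In TD5 against D11, ITGB8 joined without D11 replicate 3 or TD5 replicate 2. In TD5 against WB1, ITGA11 joined without TD5 replicate 1 or WB1 replicate 1. Among the list genes, a pseudocount of 4 took TNS1 (-0.42) and PTK2B (-0.53) in D11 under 1.5-fold, and GC correction did so for CD82 in D11 (-0.55) and BCAM in TD5 against WB1 (0.55). The cause of these changes was not tested.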
